A study of Homo sapiens with 9 samples.

Results

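The 8 genes described here encode 3 families of human proteins that destroy cytokine mRNA: ZFP36, ZFP36L1 and ZFP36L2, the Regnases ZC3H12A, ZC3H12B and ZC3H12C, and the Roquins RC3H1 and RC3H2. They were chosen by gene symbol among the 58735 genes of the count table, and all 8 passed the filter on low counts that left 18195 genes for testing. The cells were HEK293A, a human embryonic kidney line, labelled as knocked out for p65, the NF-kB subunit encoded by RELA. They received a plasmid for p65 2CS, a plasmid for p65 WT or the vector, and TNF was added 24 h later at 20 ng/mL for 2 h. Each group had 3 libraries, numbered 7 to 9 with p65 2CS, 4 to 6 with p65 WT and 1 to 3 with vector. All groups shared the knockout, the transfection and the TNF, so a change caused by TNF could not be measured. The labels give neither the meaning of 2CS, nor the number of knockout clones, nor whether the 3 libraries were grown as separate cultures. Should they share a culture, the p-values cover technical spread alone.

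Proteins of the ZFP36 family hold a pair of CCCH zinc fingers that grip AU-rich elements in 3′ untranslated regions and bring in the CCR4-NOT deadenylase, which strips the poly-A tail. Regnases carry an endonuclease domain and cut stem-loops in the 3′ ends of inflammatory mRNAs, while Roquins bind similar stem-loops through a ROQ domain and recruit decay enzymes. Transcription of ZFP36 and ZC3H12A is known to be driven by NF-kB and other TNF-activated factors, and both proteins act back on cytokine mRNAs such as that of TNF. RNA abundance is all that was measured here, so no protein amount, binding or mRNA half-life is part of the data.

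The element recognised by the ZFP36 family was looked up in the 3′ untranslated region of the longest protein-coding transcript of each gene in GENCODE 29 (GRCh38), because the family's own transcripts and many of its targets hold it. The following windows of 30 bases show where the core TATTTAT, in capitals and written as DNA 5′ to 3′, is densest in the 3 family members and in 3 known target transcripts.
ZFP36, chr19:39409184-39409213, plus strand: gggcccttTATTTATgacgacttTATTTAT
ZFP36L1, chr14:68788336-68788365, minus strand: cttatcaaaacgTATTTATtgccaaactat
ZFP36L2, chr2:43223448-43223477, minus strand: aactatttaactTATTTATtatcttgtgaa
TNF, chr6:31578000-31578029, plus strand: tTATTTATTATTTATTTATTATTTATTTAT
CXCL2, chr4:74097589-74097618, minus strand: agtcttcTATTTATTTATTTATTTATTTAT
CXCL8, chr4:73743105-73743134, plus strand: tattaaccTATTTATTATTTATgTATTTAT
Overlapping copies were counted separately. Among the known target transcripts listed further below, TNF and CXCL2 held the most copies, 8 each. Some others, such as MYC, held none, so the 3 targets shown do not stand for that list. ZFP36 held 3 copies in a 713-base region, a number reached by 1.53% of regions of similar length, and ZFP36L1 and ZFP36L2 also held 3 each in longer regions of 1871 and 1917 bases, as many as 5.87% and 5.62% of regions of like length. ZC3H12C and RC3H2 held 5 each and RC3H1 held 2, in regions of 6102, 5071 and 7507 bases, numbers reached by 10.03%, 3.94% and 57.98% of regions of like length, whereas no copy lay in those of ZC3H12A (768 bases) and ZC3H12B (4678 bases). Among 18969 regions genome-wide, 31.02% held at least 1 copy and 5.968% held at least 3. A match of letters is not a measured binding site.

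Promoter letters were read for the members with an entry in RefSeq, from 250 bases before to 50 after the start (GRCh38.p14). ZFP36 is shown for the size of its change, and ZC3H12C and RC3H2, of which RC3H2 passed the test in no comparison, because they held the NF-kB binding consensus (kB), in capitals, on either strand.
ZFP36, chr19:39406597-39406896, plus strand: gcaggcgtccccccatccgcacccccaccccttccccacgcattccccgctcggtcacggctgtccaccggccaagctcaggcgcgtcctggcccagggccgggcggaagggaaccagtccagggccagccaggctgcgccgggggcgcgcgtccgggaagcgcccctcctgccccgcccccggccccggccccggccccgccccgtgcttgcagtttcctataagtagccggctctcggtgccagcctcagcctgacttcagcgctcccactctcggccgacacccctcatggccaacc
ZC3H12C, chr11:110093142-110093441, plus strand: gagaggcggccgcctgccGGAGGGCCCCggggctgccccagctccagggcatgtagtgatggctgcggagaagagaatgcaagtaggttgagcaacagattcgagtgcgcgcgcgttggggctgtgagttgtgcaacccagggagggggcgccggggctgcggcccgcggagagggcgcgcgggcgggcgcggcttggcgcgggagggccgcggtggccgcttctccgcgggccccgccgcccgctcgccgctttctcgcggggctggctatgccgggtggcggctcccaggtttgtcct
RC3H2, chr9:122905310-122905609, minus strand: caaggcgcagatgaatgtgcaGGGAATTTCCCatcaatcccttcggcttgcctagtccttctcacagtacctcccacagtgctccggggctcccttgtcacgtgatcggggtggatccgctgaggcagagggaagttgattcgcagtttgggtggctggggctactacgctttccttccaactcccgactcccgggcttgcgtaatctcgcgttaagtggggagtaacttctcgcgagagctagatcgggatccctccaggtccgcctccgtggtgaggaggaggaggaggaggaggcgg
An entry was found for 7 of the 8 members, and in 5 of them (ZFP36, ZFP36L1, ZC3H12A, ZC3H12C and RC3H2) it started within 34 bases of the gene model used for counting. The entries of RC3H1 and ZC3H12B belong to other starts, 29225 and 331812 bases away. Of those 5, ZC3H12C held 1 kB match, 232 bases before its start, and RC3H2 held 2 overlapping matches, 229 and 228 bases before its start. The windows of ZFP36, ZFP36L1 and ZC3H12A held none, and 11.3% of 35116 RefSeq promoters of this length held one. AP-1 (TGANTCA, in 7.709% of promoters), CRE (TGACGTCA, in 1.848%) and the CArG box (1.293%) were searched on both strands too and matched none of the 5. An absent match says only that these letters are not in this window.

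ZFP36, which encodes tristetraprolin, changed most of the 8 genes. It is ENSG00000128016, on the plus strand of chromosome 19 from 39406813 to 39409412 (GRCh38, as are all gene positions below). Its level was 13.7, 14.6 and 13.6 CPM (the count relative to the TMM-scaled library total) in the p65 2CS libraries, 40.1, 30.7 and 37.0 CPM with p65 WT, and 6.83, 6.51 and 7.68 CPM with vector. All p65 WT libraries lay above all p65 2CS libraries, and these above all vector libraries, with no overlap. The values rested on 862, 1719 and 400 reads in the p65 2CS, p65 WT and vector groups. With p65 2CS the transcript was 2.56-fold lower than with p65 WT (log2 fold −1.36 ± 0.09 standard error, edgeR adjusted p = 1.54e-16) and 2.01-fold higher than with vector (1.00 ± 0.11, adjusted p = 1.18e-09). With p65 WT it was 5.14-fold higher than with vector (2.36 ± 0.10, adjusted p = 3.9e-23). RELA itself ran the other way between the p65 groups, at 25518 ± 1382 CPM with p65 2CS, 9003 ± 943 CPM with p65 WT and 67.7 ± 1.61 CPM with vector (SD, n = 3 each), or 2.83-fold higher with p65 2CS than with p65 WT (edgeR adjusted p = 1.4e-30). RELA RNA was thus still counted with vector, so these counts by themselves do not show the labelled knockout. The RELA difference stands beside every comparison of the p65 forms below, and its part in them was not tested.

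**Figure D1:**
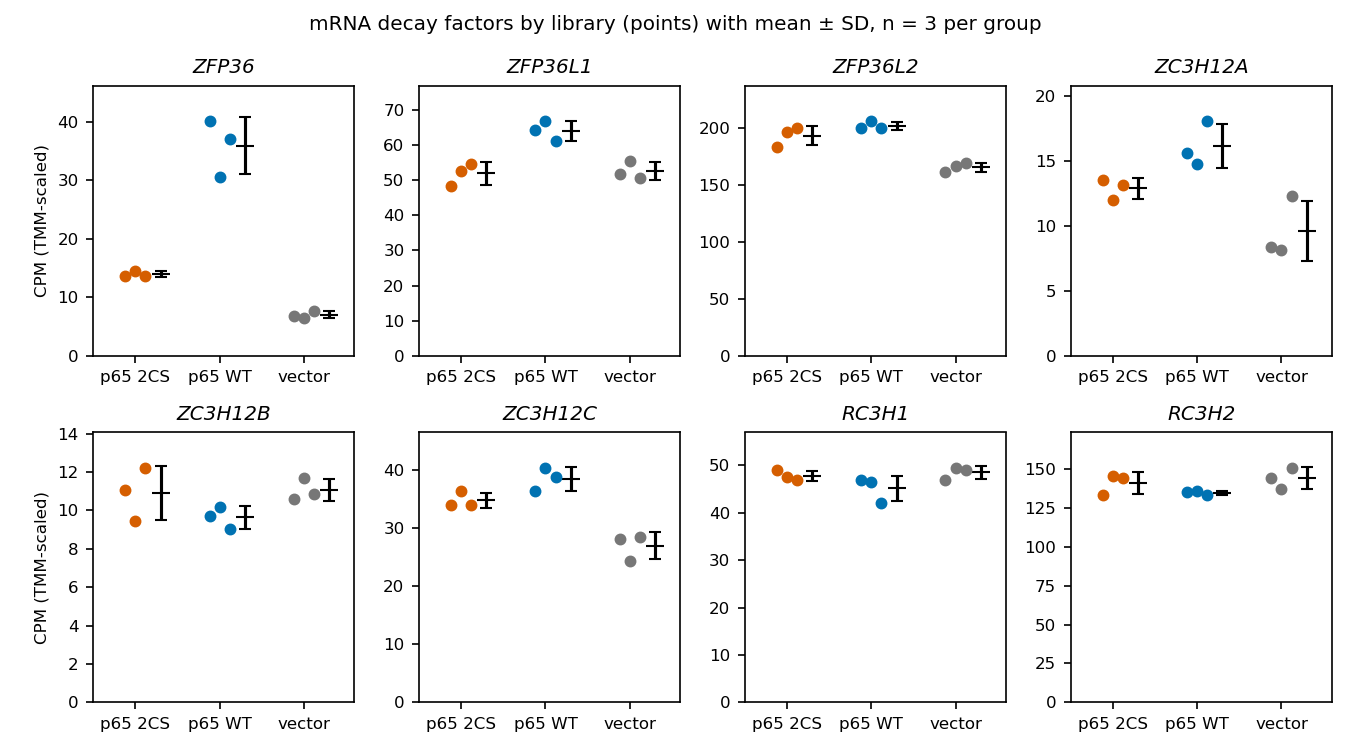
Level of each of the 8 decay genes in CPM (y axis, linear, one scale per panel) in every library of the p65 2CS, p65 WT and vector groups, with group means and SD over 3 libraries. The 3 groups of ZFP36 stand fully apart, with p65 2CS at 13.99 CPM, p65 WT at 35.9 CPM and vector at 7.01 CPM on average, whereas the Roquin genes sit at like levels throughout.

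ZFP36L1 and ZFP36L2 moved by far smaller amounts, and in different ways. ZFP36L1 (ENSG00000185650, chromosome 14, 68787660 to 68796253, minus strand) had 48.4, 52.6 and 54.7 CPM with p65 2CS, 64.2, 66.8 and 61.2 CPM with p65 WT, and 51.7, 55.4 and 50.5 CPM with vector. The p65 WT libraries stood above all others, while the p65 2CS and vector libraries overlapped. It was 1.23-fold lower with p65 2CS than with p65 WT (log2 fold −0.30 ± 0.05, edgeR adjusted p = 1.81e-05), and 1.22-fold higher with p65 WT than with vector (0.28 ± 0.05, adjusted p = 4.43e-05). For p65 2CS against vector the fold was −0.02 ± 0.05 on the log2 scale (edgeR adjusted p = 0.874), with a 95% interval of −0.12 to 0.09.

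ZFP36L2 (ENSG00000152518, chromosome 2, 43222402 to 43226609, minus strand) was the most abundant of the 8. It had 184, 196 and 199.7 CPM with p65 2CS, 200.1, 206 and 200.1 CPM with p65 WT, and 161, 166 and 169 CPM with vector. Here all libraries of both p65 forms lay above all vector libraries, and the p65 2CS libraries lay just below the p65 WT ones. It was 1.17-fold higher with p65 2CS than with vector (log2 fold 0.22 ± 0.03, edgeR adjusted p = 1.58e-06) and 1.22-fold higher with p65 WT than with vector (0.29 ± 0.03, adjusted p = 3.38e-09). Between the p65 forms the log2 fold was −0.06 ± 0.03 (edgeR adjusted p = 0.152), and its 95% interval was −0.13 to 0.0038.

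Because ZFP36 changed so much more than its relatives, the make-up of the family changed as well. Genes were set beside each other as CPM per kilobase of the deposited gene length. That length is fixed per gene and need not be that of the transcript made here, so comparison between genes is approximate. On this scale the family summed to 69.3 ± 2.94 with p65 2CS, 85.0 ± 1.37 with p65 WT and 58.5 ± 1.25 with vector (SD, n = 3 each). ZFP36 made up 10.05 ± 0.472% of that sum with p65 2CS, 21.0 ± 2.54% with p65 WT and 5.96 ± 0.471% with vector. ZFP36L2 made up 75.4 ± 0.196%, 64.4 ± 1.94% and 76.6 ± 0.404% in the same groups, and so was the main transcript of the family everywhere. The share of ZFP36L1 was 14.5 ± 0.311% with p65 2CS, 14.6 ± 0.715% with p65 WT and 17.4 ± 0.865% with vector. No library of one group overlapped another group in the ZFP36 share, which differed by −11.0 points for p65 2CS against p65 WT, 4.09 points for p65 2CS against vector and 15.1 points for p65 WT against vector. Each of these reached p = 0.1 in a two-sided exact permutation test, the smallest value that 3 against 3 libraries allow, so the design cannot pass 0.05 for a single share.

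**Figure D2:**
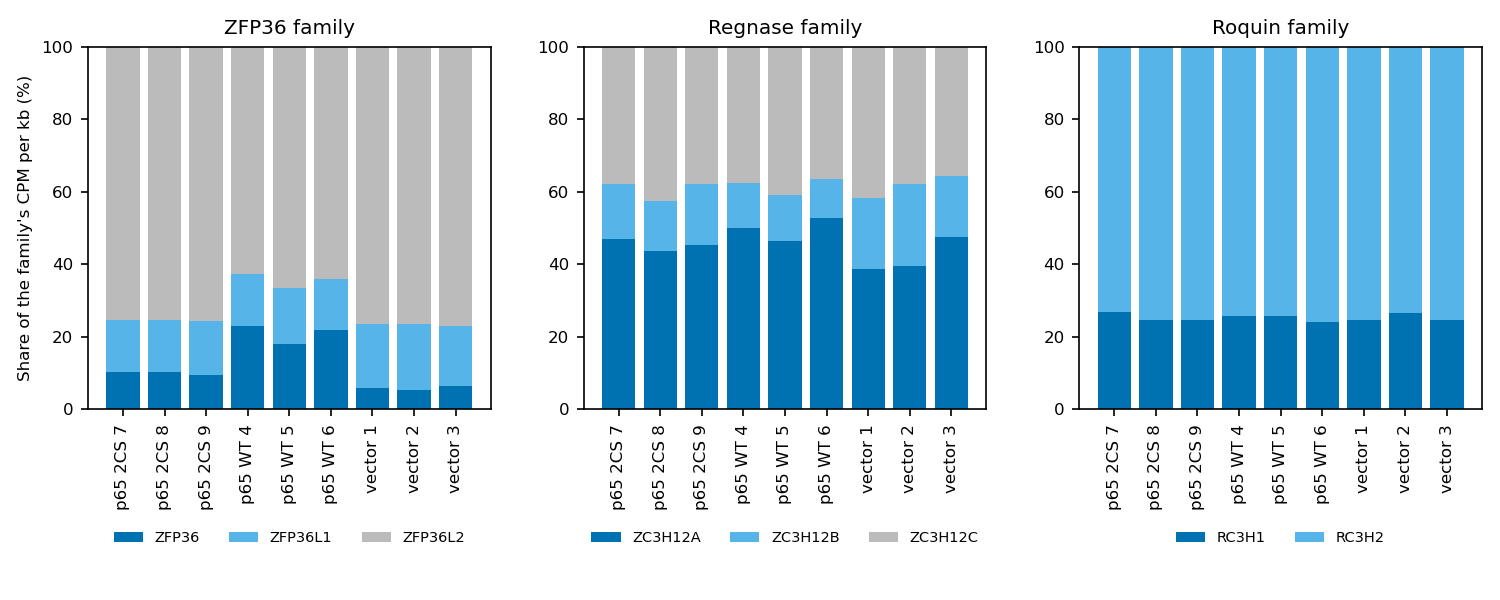
Share of each member in the summed CPM per kilobase of its family (y axis, percent, from 0), as a stacked bar for every library of the p65 2CS, p65 WT and vector groups. On average ZFP36 takes 10.05% of its family with p65 2CS, 21.0% with p65 WT and 5.96% with vector, while the split within the Roquin family hardly differs between groups.

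ZC3H12A, also called MCPIP1 and the best studied Regnase, was higher with either p65 form than with vector. The gene (ENSG00000163874, chromosome 1, 37474552 to 37484379, plus strand) had 13.6, 12 and 13.1 CPM with p65 2CS, 15.6, 14.8 and 18.1 CPM with p65 WT, and 8.38, 8.17 and 12.3 CPM with vector. All p65 WT libraries were above all others, but vector library 3 overlapped the p65 2CS libraries and was well above the other vector libraries. The gene was 1.69-fold higher with p65 WT than with vector (log2 fold 0.75 ± 0.12, edgeR adjusted p = 1.82e-06). With p65 2CS it was 1.34-fold higher than with vector (0.42 ± 0.12, edgeR adjusted p = 0.00653) and 1.26-fold lower than with p65 WT (−0.33 ± 0.11, adjusted p = 0.022). Leaving out vector library 3 raised the log2 fold against vector to 0.63 with p65 2CS (edgeR adjusted p = 9.96e-05) and to 0.96 with p65 WT (adjusted p = 1.03e-08). Both calls made with p65 2CS were lost without certain single libraries. Against vector the call was lost without vector library 1 (0.34, edgeR adjusted p = 0.0602) or 2 (0.32, adjusted p = 0.0803), and against p65 WT without p65 WT library 6 (−0.24, adjusted p = 0.152) or p65 2CS library 8 (−0.27, adjusted p = 0.114), and under DESeq2 (adjusted p = 0.0527). Of its 3121 exon bases, 60 are shared with the microRNA gene MIR6732, which had 0 counts.

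The other Regnases are less well studied relatives with the same kind of endonuclease domain. ZC3H12C (ENSG00000149289, chromosome 11, 110093361 to 110171841, plus strand) had 34.0, 36.3 and 33.9 CPM with p65 2CS, 36.3, 40.4 and 38.8 CPM with p65 WT, and 28.1, 24.3 and 28.5 CPM with vector. Every library of a p65 form was above every vector library, and the ranges of the p65 forms just overlapped. It was 1.29-fold higher with p65 2CS (log2 fold 0.37 ± 0.07, edgeR adjusted p = 4.48e-05) and 1.43-fold higher with p65 WT (0.52 ± 0.07, adjusted p = 5.65e-08) than with vector. Between the forms the log2 fold was −0.14 ± 0.07, with a 95% interval of −0.28 to −0.01 before adjustment and an edgeR adjusted p of 0.0934.

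ZC3H12B (ENSG00000102053, chromosome X, 65366638 to 65507887, plus strand) passed the test in no comparison. Its level was 11.1, 9.46 and 12.2 CPM with p65 2CS, 9.72, 10.2 and 9.03 CPM with p65 WT, and 10.6, 11.7 and 10.8 CPM with vector. The p65 2CS libraries overlapped both other groups, and the p65 WT libraries lay just below the vector ones. Its log2 fold was 0.17 ± 0.11 for p65 2CS against p65 WT (95% interval −0.06 to 0.40, edgeR adjusted p = 0.281), −0.03 ± 0.11 for p65 2CS against vector (adjusted p = 0.896) and −0.20 ± 0.11 for p65 WT against vector (adjusted p = 0.208). Within the Regnase sum of 9.10, 10.4 and 7.26 CPM per kilobase with p65 2CS, p65 WT and vector, ZC3H12A held 45.4 ± 1.59%, 49.8 ± 3.26% and 42.0 ± 4.93% (SD, n = 3 each). Those shares gave two-sided exact permutation p-values of 0.2 for p65 2CS against p65 WT, 0.4 for p65 2CS against vector and 0.2 for p65 WT against vector. ZC3H12B held 15.3 ± 1.56% with p65 2CS, 11.9 ± 1.21% with p65 WT and 19.7 ± 2.91% with vector. Its p65 WT shares lay below all others (exact permutation p = 0.1 against p65 2CS and against vector, the smallest possible), while those with p65 2CS and vector overlapped (p = 0.2). The share of ZC3H12C was 39.3 ± 2.73%, 38.2 ± 2.24% and 38.3 ± 3.11% in the p65 2CS, p65 WT and vector groups, with exact permutation p-values of 0.5 to 1.

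Neither Roquin gene passed the test in any comparison. RC3H1 (ENSG00000135870, chromosome 1, 173931214 to 174022297, minus strand) averaged 47.7 ± 1.13 CPM with p65 2CS, 45.1 ± 2.69 CPM with p65 WT and 48.5 ± 1.33 CPM with vector. RC3H2 (ENSG00000056586, chromosome 9, 122844556 to 122905341, minus strand) had 133, 145 and 144 CPM with p65 2CS, 135, 135 and 133 CPM with p65 WT, and 144, 137 and 151 CPM with vector. The p65 WT libraries of RC3H2 lay just below the vector ones without overlap, at a log2 fold of −0.10 ± 0.04 and an edgeR adjusted p of 0.0529. That value passed the threshold with library totals alone as the scaling (−0.14, edgeR adjusted p = 0.00359) and without vector library 2 (−0.13, adjusted p = 0.0152). For p65 2CS against p65 WT it was 0.07 ± 0.04 (edgeR adjusted p = 0.174) and likewise passed with library totals (0.10, adjusted p = 0.044) and without p65 2CS library 7 (0.11, adjusted p = 0.0387). The log2 folds of RC3H1 were 0.08 ± 0.06, −0.02 ± 0.05 and −0.10 ± 0.06 for p65 2CS against p65 WT, p65 2CS against vector and p65 WT against vector. The last of them passed with library totals alone (−0.15, edgeR adjusted p = 0.0405). RC3H2 made up 74.6 ± 1.36%, 74.8 ± 0.982% and 74.7 ± 1.16% of the Roquin sum with p65 2CS, p65 WT and vector.

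**Figure D3:**
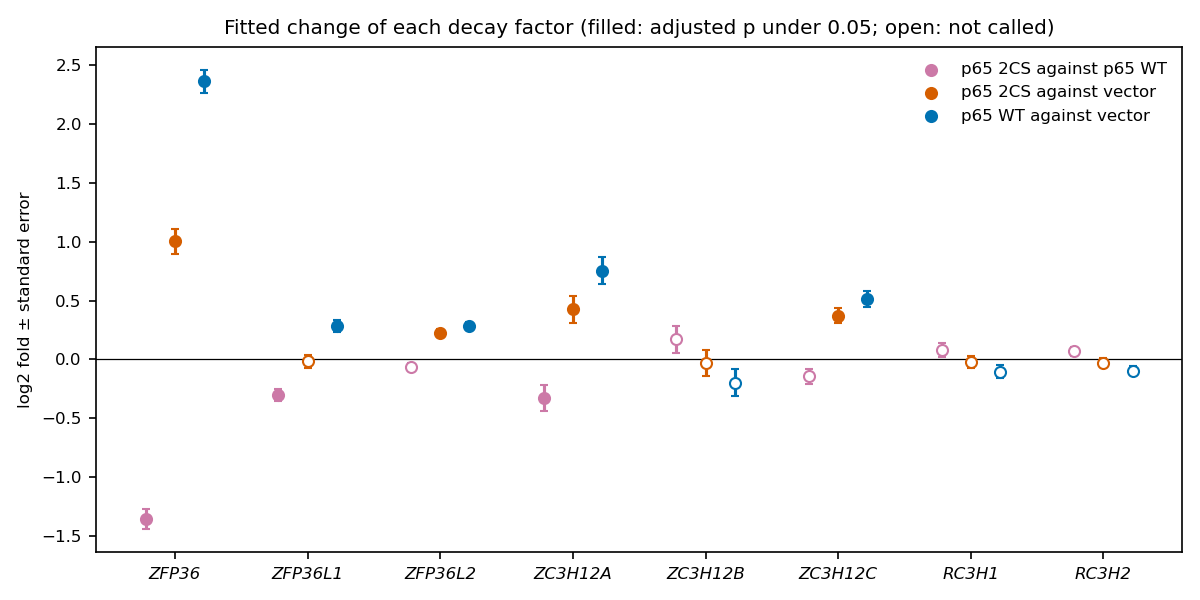
Log2 fold with standard error of each member (y axis, log2) for p65 2CS against p65 WT, p65 2CS against vector and p65 WT against vector, with filled points for an edgeR adjusted p under 0.05. ZFP36 is far from 0 in all 3 comparisons, ZC3H12A, ZC3H12C and ZFP36L2 are above 0 against vector with either form, and the Roquin genes and ZC3H12B have no filled point.

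Counted over the 8 genes, 3 were lower and 0 higher with p65 2CS than with p65 WT, in a comparison that called 31.2% of all tested genes (17.9% lower and 13.4% higher). Against vector, 4 were higher and 0 lower with p65 2CS, where 23.4% of all genes were called (12.1% higher and 11.4% lower). With p65 WT, 5 were higher than with vector and 0 lower, where 28.8% of all genes were called (16.4% higher and 12.5% lower). The share of members called was thus 37.5% between the p65 forms, near its background of 31.2% for either direction. All 3 of these calls were lower, beside 17.9% of all genes, and that of ZC3H12A was lost under some alternatives. The share was 50% for p65 2CS against vector and 62.5% for p65 WT against vector. The 8 genes were chosen with earlier results of these data known, so these shares are a description. The median log2 fold of the 8 was −0.10 for p65 2CS against p65 WT, 0.10 for p65 2CS against vector and 0.29 for p65 WT against vector, with medians over all tested genes of 0.0030, −0.0018 and −0.02. Any 2 of these comparisons share the libraries of 1 group, so their counts are not independent.

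The order of the members by level per kilobase of length, approximate as said above, also differed between groups, in the place of ZFP36 and of others. ZFP36L2 came first in each, at 52.3 ± 2.26 CPM per kilobase with p65 2CS, 54.7 ± 0.929 with p65 WT and 44.8 ± 1.09 with vector (SD, n = 3 each). ZFP36 had 6.96 ± 0.258 CPM per kilobase with p65 2CS, behind RC3H2 and ZFP36L1 as well, 17.9 ± 2.40 with p65 WT, behind ZFP36L2 alone, and 3.49 ± 0.302 with vector, where RC3H1 also exceeded it. With vector its libraries overlapped those of the next gene down, ZC3H12A (3.08 ± 0.740), and those of ZC3H12A overlapped ZC3H12C (2.77 ± 0.238). With p65 2CS the only neighbours to overlap were RC3H1 (4.15 ± 0.0983) and ZC3H12A (4.13 ± 0.257), and with p65 WT they were ZC3H12C (3.96 ± 0.212) and RC3H1 (3.92 ± 0.234). RC3H2 was above ZFP36L1 with p65 2CS (12.2 against 10.1) and with vector (12.5 against 10.2). With p65 WT it was below ZFP36L1 (11.7 against 12.4). RC3H1 averaged above ZC3H12A and ZC3H12C with vector (4.21 against 3.08 and 2.77). With p65 WT it averaged below both (3.92 against 5.17 and 3.96). ZC3H12B came last in every group, at 1.39 ± 0.177, 1.23 ± 0.0754 and 1.41 ± 0.0729 CPM per kilobase with p65 2CS, p65 WT and vector.

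Genes with a profile most like that of a member were ranked by the Euclidean distance between centred log2 CPM values over the 9 libraries, among 16485 genes, as a description. For ZFP36 the 5 nearest were MSX1 (distance 0.341), TNS1 (0.419), GREM1 (0.424), GRHL3 (0.432) and DHRS3 (0.459), of which MSX1 had 82.5 CPM with p65 2CS, 228 CPM with p65 WT and 40.5 CPM with vector. For ZFP36L1 they were PANX1 (0.135), COL1A1 (0.162), NADK (0.163), CLN6 (0.166) and RXRA (0.166), and for ZFP36L2 HSPA4L (0.072), NECAP2 (0.083), SRP19 (0.109), ZER1 (0.110) and VEZF1 (0.116). Those of ZC3H12A were RSPO2 (0.356), ESRRB (0.390), ZNF491 (0.426), LRRC1 (0.438) and SYNE3 (0.439), and those of ZC3H12C SCARF2 (0.222), NHLH2 (0.222), PHF11 (0.231), ABTB2 (0.232) and KCNG3 (0.234). RELA and the other members were left out of these rankings.

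The enzymes that the decay factors call upon differed by small amounts. For the pathway genes, values in parentheses are log2 folds ± standard error, and higher or lower is used of genes past the adjusted threshold of 0.05 in edgeR's test. Of 20 genes for deadenylation, 9 were higher and 3 lower with p65 2CS than with p65 WT by edgeR, 5 were higher and 0 lower with p65 2CS than with vector, and 3 were higher and 4 lower with p65 WT than with vector, where leaving out vector library 1 left 4 calls in place of 7. Over all tested genes the shares called in these 3 comparisons were 31.2%, 23.4% and 28.8%, so that 5 of 20 against vector with p65 2CS is near the background. TOB2, an adaptor that tethers CCR4-NOT, was higher with p65 2CS than with p65 WT (log2 fold 0.34 ± 0.05). So was CNOT4, a ubiquitin ligase linked to CCR4-NOT (0.26 ± 0.07), which was higher than with vector too (0.39 ± 0.07). BTG2, another CCR4-NOT adaptor and a known p53 target, was lower with p65 2CS than with p65 WT (−0.26 ± 0.05) and higher with p65 WT than with vector (0.29 ± 0.05). Against vector, the poly-A nucleases PARN (0.24 ± 0.05) and PAN2 (0.21 ± 0.04) were higher with p65 2CS, and with p65 WT TOB1 was lower (−0.31 ± 0.07) and CNOT9, a CCR4-NOT subunit, was higher (0.20 ± 0.04). The list medians were 0.08 for p65 2CS against p65 WT, 0.04 for p65 2CS against vector and −0.01 for p65 WT against vector, beside 0.0030, −0.0018 and −0.02 over all tested genes.

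Among 15 genes of decapping and 5′ decay, PATL1 differed most against vector. PATL1 encodes a scaffold between the decapping enzyme and its LSM ring. It averaged 112.0 ± 1.86 CPM with p65 2CS, 98.5 ± 3.74 CPM with p65 WT and 76.6 ± 2.70 CPM with vector, and was higher than with vector by 0.55 ± 0.04 with p65 2CS and 0.36 ± 0.04 with p65 WT on the log2 scale. With p65 2CS it was also higher than with p65 WT (0.19 ± 0.04), by less than DCP1B, LSM4 and DCP1A differed there. DCP1B, a decapping cofactor, was higher with p65 2CS than with p65 WT (0.40 ± 0.08) and than with vector (0.39 ± 0.08), and its relative DCP1A was higher than with p65 WT (0.20 ± 0.06). Of the LSM ring, LSM4 was lower with p65 2CS than with p65 WT (−0.21 ± 0.03), LSM2 was higher with p65 WT than with vector (0.21 ± 0.06), and LSM6 was lower than with vector with p65 2CS (−0.28 ± 0.10) and with p65 WT (−0.29 ± 0.10, with overlapping libraries). In all, 4 were higher and 2 lower for p65 2CS against p65 WT, 5 and 2 for p65 2CS against vector, and 4 and 1 for p65 WT against vector, beside 31.2%, 23.4% and 28.8% of all tested genes called. Those 7 calls against vector became 4 without p65 2CS library 8, and the 5 became 3 without vector library 2 or p65 WT library 6. The list medians were 0.0041, 0.07 and 0.03, beside 0.0030, −0.0018 and −0.02 over all tested genes.

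Of 15 genes of the exosome, the 3′ to 5′ nuclease complex, and its SKI helper complex, 5 were higher and 0 lower with p65 2CS than with p65 WT, 3 were higher and 1 lower with p65 2CS than with vector, and 0 were higher and 4 lower with p65 WT than with vector. These counts of 5, 4 and 4 are near the shares of all tested genes called, 31.2%, 23.4% and 28.8%. The first set was led by EXOSC7, a subunit of the exosome ring (0.22 ± 0.08), DIS3L, an exosome nuclease (0.18 ± 0.05), and TTC37, a SKI subunit (0.18 ± 0.03). Against vector with p65 2CS, DIS3, the nuclear exosome nuclease (0.16 ± 0.04), and EXOSC8 (0.15 ± 0.05) were higher and EXOSC6 (−0.12 ± 0.03) was lower. With p65 WT, EXOSC7 (−0.25 ± 0.08), EXOSC2 (−0.13 ± 0.04) and the helicase gene SKIV2L (−0.12 ± 0.04, with overlapping libraries) were lower than with vector. Either set of 4 calls against vector fell to 2 without single libraries, which were vector library 3 for p65 WT, and vector library 2 or 3 or p65 2CS library 7 or 8 for p65 2CS. The medians were 0.04, 0.03 and −0.07, beside 0.0030, −0.0018 and −0.02 over all tested genes.

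Among 11 tested of 12 listed genes for other proteins that bind AU-rich elements, 3 were higher and 2 lower for p65 2CS against p65 WT, 0 and 2 for p65 2CS against vector, and 1 and 3 for p65 WT against vector, beside 31.2%, 23.4% and 28.8% of all tested genes called. ELAVL1, which encodes the stabilising factor HuR, averaged 219 ± 6.87 CPM with p65 2CS, 246 ± 2.02 CPM with p65 WT and 221 ± 5.31 CPM with vector, and was lower with p65 2CS than with p65 WT (−0.17 ± 0.03). TIAL1 (0.10 ± 0.04) and CELF1 (0.09 ± 0.03) were slightly higher in that comparison, and TIAL1 was lower with p65 WT than with vector (−0.12 ± 0.04). HNRNPDL was lower than with vector with p65 2CS (−0.25 ± 0.03) and with p65 WT (−0.22 ± 0.03), as was its relative HNRNPD with p65 2CS (−0.15 ± 0.03) and with p65 WT (−0.11 ± 0.03). The 5 calls between the p65 forms became 2 without p65 WT library 6 and 3 without p65 WT library 4 or 5 or p65 2CS library 7 or 8. Of 7 further genes, for CCCH or NYN-domain factors and for UPF1 and ARID5A, which are of neither kind, 5 were tested and 1 was lower in each comparison. That was KHNYN for p65 2CS against p65 WT (−0.13 ± 0.05, edgeR adjusted p = 0.0495), which no longer passed without p65 WT library 4 or any 1 p65 2CS library. Against vector it was ARID5A, which encodes a protein that stabilises cytokine mRNAs against Regnase, at 31.3 ± 1.46 CPM with p65 2CS, 29.5 ± 1.49 CPM with p65 WT and 39.5 ± 0.778 CPM with vector. The remaining Regnase gene, ZC3H12D, had 18, 11 and 7 reads in all in the p65 2CS, p65 WT and vector groups and was not tested.

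Of 19 genes that control the decay factors by phosphorylation, 14-3-3 binding or turnover, 1 was higher and 5 were lower for p65 2CS against p65 WT, 1 and 5 for p65 2CS against vector, and 2 and 3 for p65 WT against vector. The totals of 6, 6 and 5 are at or near the shares of all tested genes called, 31.2%, 23.4% and 28.8%. DUSP1, a phosphatase of the p38 kinase that acts on tristetraprolin, averaged 328 ± 8.96 CPM with p65 2CS, 329 ± 9.26 CPM with p65 WT and 420.3 ± 2.28 CPM with vector, and so was lower with either form (log2 folds −0.36 ± 0.03 and −0.35 ± 0.03). The 14-3-3 genes YWHAE (−0.18 ± 0.02) and YWHAZ (−0.15 ± 0.03) were lower with p65 2CS than with p65 WT, and BTRC, whose product marks Regnase for degradation, was higher (0.29 ± 0.07). YWHAH was lower than with vector with p65 2CS (−0.22 ± 0.04) and p65 WT (−0.22 ± 0.04), YWHAZ was lower with p65 2CS (−0.19 ± 0.03), and YWHAE was higher with p65 WT (0.17 ± 0.02). No member of the list differed by as much as ZFP36.

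The transcripts that these factors are known to degrade changed the most. Of 36 listed, 28 were tested, and with p65 2CS 16 of them were lower and 2 higher than with p65 WT. Against vector, 14 were higher and 4 lower with p65 2CS, and 19 were higher and 5 lower with p65 WT. Of all tested genes, 31.2%, 23.4% and 28.8% were called in these comparisons. The median log2 fold of the list was −0.25, 0.65 and 0.95 in these 3 comparisons, beside 0.0030, −0.0018 and −0.02 over all tested genes. Many of these genes are also known transcriptional targets of NF-kB, and the list was put together with earlier results of these data known, so it is no independent evidence of its direction. The filter on low counts used all 3 groups, so some listed genes could pass it through the p65 groups alone. With vector, CCL20 had 0 reads and TNF had 1. The counts and medians against vector are therefore partly fixed by the filter.

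ICAM1, an adhesion receptor, averaged 13.7 ± 0.840 CPM with p65 2CS, 404 ± 24.6 CPM with p65 WT and 0.246 ± 0.0440 CPM with vector, and was 29.4-fold lower with p65 2CS than with p65 WT. The chemokine gene CCL20 (17.2 ± 1.74 CPM with p65 2CS and 151 ± 0.700 CPM with p65 WT) was 8.70-fold lower and had no read with vector. CXCL3 (3.04 ± 0.430 CPM with p65 2CS and 25.6 ± 2.05 CPM with p65 WT) was 8.30-fold lower. TNF itself averaged 2.31 ± 0.175 CPM with p65 2CS, 13.4 ± 1.04 CPM with p65 WT and 0.0178 ± 0.0308 CPM with vector, the last from 1 read, and was 5.79-fold lower with p65 2CS than with p65 WT. CXCL8 averaged 5.71 ± 0.905 CPM with p65 2CS, 20.5 ± 2.11 CPM with p65 WT and 0.0879 ± 0.0834 CPM with vector, the last from 5 reads. All libraries of these 5 genes were ordered p65 WT, p65 2CS, vector without overlap. They are named for the size of their folds, so such a separation was close to given by the choice. Other listed genes had other orders. VEGFA and CCND1 averaged highest with vector, and REL and MYC averaged higher with p65 2CS than with p65 WT. Of the 36 listed genes, 29 held at least 1 TATTTAT and 21 at least 3, with 8 in TNF and 8 in CXCL2, beside 1 in CCL20 and 2 in ICAM1. Genome-wide, 31.02% of regions held at least 1 and 5.968% at least 3. None lay in CCL2, NFKBIZ, NFKBID, ICOS, TNFRSF4, MYC and IER2. The list was made of known targets of these factors, so its number of copies is no independent result.

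**Figure D4:**
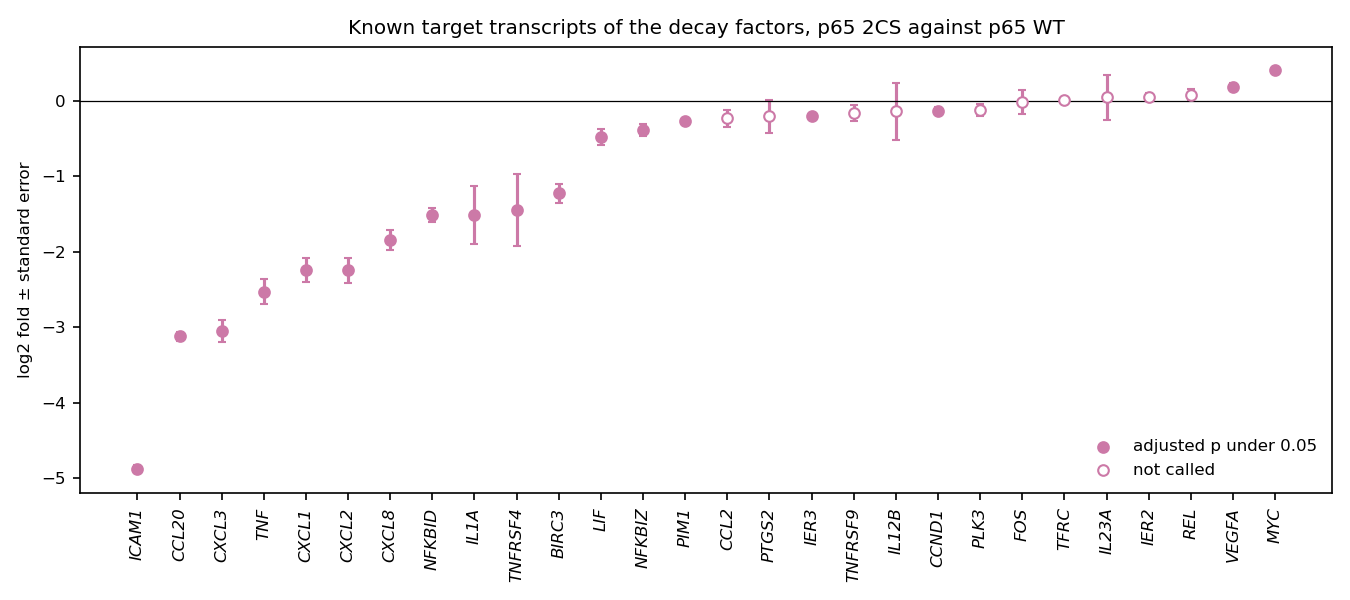
Log2 fold with standard error (y axis, log2) of the 28 tested known target transcripts for p65 2CS against p65 WT, ordered by value, with filled points for an edgeR adjusted p under 0.05. The points run from a 29.4-fold lower ICAM1 at the left to VEGFA and MYC above 0 at the right.

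Library totals were 17146134 to 25068515 counts with p65 2CS, 15989601 to 16507689 with p65 WT and 17923114 to 20162267 with vector, and libraries of a group differed by more than counting noise, with 1.91 to 2.6 times the chi-square that sampling alone gives. Of 7 nephron epithelium markers, 3, 5 and 3 reached 1 CPM with p65 2CS, p65 WT and vector, with summed levels of 22.4 to 24.9, 26.2 to 31.8 and 18.5 to 21.6 CPM. Of the defining genes of mature epithelium, CDH16 and EPCAM were below 1 CPM in every library, and CDH1 averaged 0.775 ± 0.186 CPM with p65 2CS, 1.90 ± 0.622 CPM with p65 WT and 0.544 ± 0.0599 CPM with vector. Of 5 leukocyte markers 1 reached 1 CPM in each group, the sums were 3.46 to 4.0, 3.09 to 3.59 and 3.42 to 3.54 CPM, and PTPRC was at or near 0. Of 6 fibroblast and endothelial markers, 4, 4 and 2 reached 1 CPM and the sums were 61.2 to 63.2, 92.6 to 93.9 and 55.4 to 61.0 CPM. Of 4 neural markers, 1, 2 and 1 did, at 810 to 839, 832 to 855 and 881 to 919 CPM, nearly all of it NEFL. The sums of the nephron list and of the fibroblast and endothelial list moved with the groups in the same order as ZFP36, but not every marker did. In the nephron list SALL1, PAX8 and CDH1 averaged highest with p65 WT, whereas LHX1 and PAX2 averaged highest with vector. In the other list COL1A1, VWF and CDH5 averaged highest with p65 WT, whereas COL1A2 and PECAM1, both near 0, averaged highest with vector. The part of these markers in the results was not tested. In these bulk libraries, fewer cells making a transcript and less of it per cell cannot be told apart.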

How the data were processed

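Libraries were made from poly-A selected RNA with random primers, per the labels' protocols. The submitters' processing notes name the aligner HISAT2 2.0.5. The counting tool, its use of strand and the build were not given in the sources used here. Raw read counts per gene, whole numbers with no normalization, are what the authors deposited. The identifiers, positions, strands and symbols of all 58735 genes were those of GENCODE 29 (GRCh38), from which positions are given.

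The deposited counts were tested with edgeR 4.0.16 in R 4.3.3, after its expression filter and TMM scaling. A single fit of the 9 libraries gave quasi-likelihood F tests, adjusted by Benjamini-Hochberg over 18195 genes (threshold 0.05), and the standard errors of log2 folds follow from F. CPM was computed from the counts and the scaled totals, and the length used per kilobase is the deposited gene length. Alternatives were DESeq2 1.42.0, its size factors, library totals alone, no filter, each pair of groups alone, RELA left out, and each library left out.

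All members are named. For each pathway list and comparison, the 3 called genes with the largest absolute log2 fold and at least 1 CPM in a group are named, and for each member called anywhere the 5 genes nearest in profile. Members and lists were chosen with earlier results of these data known.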

Additional observations from a re-analysis of the deposited data

How the results depend on the processing

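Of 288 member folds recomputed under the alternatives, 272 kept their direction and their side of the threshold, 5 lost their call, 5 gained one, and 6 turned round, all 6 for uncalled genes in p65 2CS against vector when 1 library was left out. ZFP36L1 (−0.02 with all libraries) became 0.023 without vector library 2 and 0.027 without p65 2CS library 7, in a leave-one-out range of −0.053 to 0.027. ZC3H12B (−0.03) became 0.015 without vector library 2 and 0.075 without p65 2CS library 8 (range −0.12 to 0.075). RC3H2 (−0.03) became 0.0063 without vector library 3 and 0.0098 without p65 2CS library 7 (range −0.064 to 0.0098). The lost calls all belonged to ZC3H12A, and those gained to RC3H1 and RC3H2, with values given above. The cause was not tested. ZFP36 stayed called throughout, at −1.46 to −1.27 for p65 2CS against p65 WT, 0.95 to 1.07 for p65 2CS against vector and 2.27 to 2.46 for p65 WT against vector. Of 252 recomputed counts of called pathway genes, 26 moved by more than 1.5 times. No paired analysis was possible because no replicate number is shared between groups. Without a known strand setting, reads from overlapping antisense genes cannot be told apart.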
